A study of Mus musculus with 2 samples.

Results

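The V segments of the alpha and beta chains of the T cell receptor were measured in single cells from mouse tumours. A row of the count tables was taken as a V segment where its symbol began with Trav (alpha chain) or Trbv (beta chain). The rule gave 163 of 32285 genes, 128 of them Trav and 35 Trbv. The 2 libraries came from wild-type mice that bore MC38-OVA tumours, a mouse colon carcinoma line made to carry ovalbumin. The Control library came from mice on a control diet and the Sitagliptin library from mice on a diet with sitagliptin, an inhibitor of the peptidase DPP4 (CD26). CD45+ cells, that is all white blood cells, were taken from the tumours with magnetic beads and sequenced with a droplet kit that reads the 5′ end of transcripts. The dose, the days of feeding, the age of the mice and the number of mice behind each library were not given in the sources used here. With 1 library a diet there was no replicate and no test, and the intervals below are 95% intervals that cover counting error only.

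Each T cell builds its own receptor by joining 1 V segment to a J segment (alpha) or to a D and a J segment (beta) of the same locus. The V segment codes for the leader and most of the variable domain, and the join itself forms the third loop (CDR3), which contacts the peptide. The daughter cells of a T cell inherit the same joins, so a clone shares its V segments. The reverse does not hold, since unrelated T cells often use the same pair of V segments. The deposited counts give V segments without their joins: all 60 Traj rows together held 1 UMI, a tag that counts an RNA molecule once, and so did all 14 Trbj rows. For this reason a shared V pair is reported below and never a clone. The mouse alpha locus carries large repeated blocks, whose segments bear d or n in their names (Trav16d-dv11, Trav16n), and many of these copies are nearly the same sequence.

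The coding sequences below show what a read must distinguish for the segments that the results turn on. They were read on the coding strand from the GENCODE mouse release 21 transcripts (GRCm38), in which all 163 segments were found by identifier, the Trav segments on chromosome 14 and the Trbv segments on chromosome 6. Trbv12-1 and Trbv12-2, the most used beta segments of the T cells, are 88.2% identical, and capitals mark the 32 positions among the last 300 coding bases at which they differ.
Trbv12-1: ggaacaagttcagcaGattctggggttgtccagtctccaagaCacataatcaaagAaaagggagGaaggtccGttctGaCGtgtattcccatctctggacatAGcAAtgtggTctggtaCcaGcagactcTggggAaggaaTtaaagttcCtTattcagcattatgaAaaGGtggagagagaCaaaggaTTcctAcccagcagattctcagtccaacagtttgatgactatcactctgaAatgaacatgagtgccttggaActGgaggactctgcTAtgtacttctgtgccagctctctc
Trbv12-2: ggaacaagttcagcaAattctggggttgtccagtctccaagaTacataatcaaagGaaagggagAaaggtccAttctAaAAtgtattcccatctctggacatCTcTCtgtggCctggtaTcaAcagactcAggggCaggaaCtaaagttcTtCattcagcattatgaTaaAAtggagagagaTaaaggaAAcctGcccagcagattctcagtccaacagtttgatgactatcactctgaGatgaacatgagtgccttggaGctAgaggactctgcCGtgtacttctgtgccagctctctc
Trav16, Trav16n and Trav16d-dv11, the copies of the most used alpha family, are much closer. Their last 300 coding bases differ at 6 positions, in capitals, and are otherwise the same in all 3 copies. Over the whole coding sequence they are 96.6% to 97.7% identical, so further differences lie before the printed bases.
Trav16: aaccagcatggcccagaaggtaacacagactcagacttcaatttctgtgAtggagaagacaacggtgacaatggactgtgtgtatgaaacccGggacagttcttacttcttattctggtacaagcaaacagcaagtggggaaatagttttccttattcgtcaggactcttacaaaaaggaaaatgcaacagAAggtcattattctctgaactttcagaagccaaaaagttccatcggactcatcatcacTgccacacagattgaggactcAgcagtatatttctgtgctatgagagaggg
Trav16n: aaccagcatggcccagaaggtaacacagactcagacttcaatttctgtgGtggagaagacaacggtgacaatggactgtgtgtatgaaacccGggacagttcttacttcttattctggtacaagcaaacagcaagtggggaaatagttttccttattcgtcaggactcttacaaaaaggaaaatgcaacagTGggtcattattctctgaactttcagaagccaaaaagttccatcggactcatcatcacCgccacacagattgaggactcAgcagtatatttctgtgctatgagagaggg
Trav16d-dv11: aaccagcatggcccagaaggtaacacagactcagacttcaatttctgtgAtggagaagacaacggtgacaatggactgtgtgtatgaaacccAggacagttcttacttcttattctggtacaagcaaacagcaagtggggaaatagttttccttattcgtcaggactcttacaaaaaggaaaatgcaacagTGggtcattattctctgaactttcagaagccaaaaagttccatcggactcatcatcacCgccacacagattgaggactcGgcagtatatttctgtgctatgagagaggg
Trbv19 was the beta partner in the pair found in more T cells than any other, and Trbv31 in the leading pair of the Sitagliptin library. In these 2 sequences, again the last 300 coding bases, capitals mark the last in-frame tgt codon, which codes for the conserved cysteine at the start of CDR3, and the bases after it.
Trbv19: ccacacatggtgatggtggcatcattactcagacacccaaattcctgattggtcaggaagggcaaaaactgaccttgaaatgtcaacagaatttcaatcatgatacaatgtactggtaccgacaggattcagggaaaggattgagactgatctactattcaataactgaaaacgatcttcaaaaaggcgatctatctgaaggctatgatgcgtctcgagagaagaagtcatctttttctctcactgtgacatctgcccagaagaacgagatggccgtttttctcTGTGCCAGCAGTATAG
Trbv31: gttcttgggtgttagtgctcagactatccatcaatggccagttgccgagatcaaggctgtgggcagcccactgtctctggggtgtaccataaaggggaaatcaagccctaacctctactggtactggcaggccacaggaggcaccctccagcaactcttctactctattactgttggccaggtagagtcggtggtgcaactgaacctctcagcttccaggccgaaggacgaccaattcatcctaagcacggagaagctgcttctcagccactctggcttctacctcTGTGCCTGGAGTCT

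Segments with a perfect copy were almost not counted. Of the 128 Trav segments 72 had a UMI in some barcode of either library, with 1736 UMIs in all, and of the 35 Trbv segments 20 had one, with 4890 UMIs. Among the 108 Trav segments annotated as functional, 30 have an identical coding sequence elsewhere in the locus, and only 3 of these 30 had any UMI, with 3 UMIs together. Of the 78 without an identical copy 66 had UMIs, 1707 in all. No Trbv segment has a copy more than 98% identical, and 19 of the 22 functional Trbv segments had UMIs. Annotated pseudogenes were rare in both chains, with UMIs for 3 of 20 Trav and 1 of 13 Trbv. How the authors' pipeline treats reads that match several segments was not given in the sources used here, so the use of the duplicated Trav segments cannot be read from these counts.

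**Figure D1:**
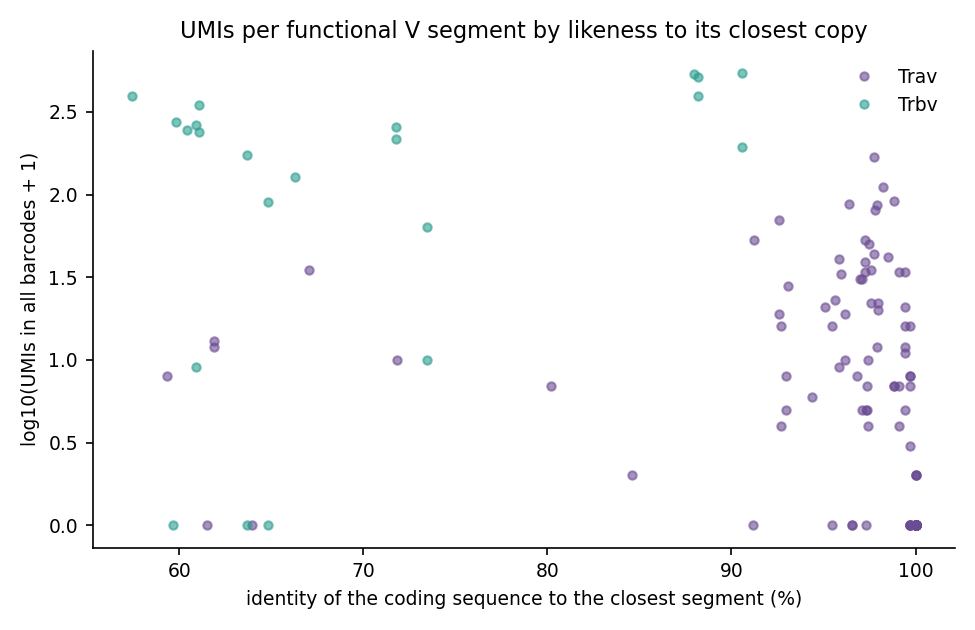
UMIs over all barcodes of both libraries, as log10 of UMIs plus 1, for each functional V segment (1 point) against the identity of its coding sequence to the closest other segment, in percent. At 100% identity stand 30 Trav segments, 27 of them overlapping at 0 UMIs.

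The deposited tables held 8694 barcodes (Control) and 9766 barcodes (Sitagliptin), with medians of 5074 and 5158.5 UMIs and none below 2001, and 132 barcode sequences occurred in both. After removal of likely doublets, clustering without any V, D or J segment gave 190 and 389 T cells. They comprised effector-like CD8 T cells (81 and 154), memory-like T cells (33 and 103), cycling T cells (40 and 52), a cluster led by Penk, Ccl1 and Csf2 (19 and 56) and regulatory T cells (17 and 24). Clusters were named by fixed levels of a few markers, so those levels follow from the naming and cannot test it. Foxp3, a naming marker, stood at 150 CPM (UMIs of a gene scaled to an equal total) in the regulatory cluster. Cd8a, not used for naming, stood at 799 CPM in the main effector-like cluster. In the memory-like cluster Tcf7 stood at 152 CPM, but Klra6 and Klra1, receptors known from NK cells, were among its leading genes, and Trdc, the constant segment of the delta chain, stood at 58.4 CPM. A further cluster of 777 and 620 barcodes carried both T cell and macrophage RNA and is called mixed below. Its naming markers, Cd3e and the complement gene C1qa, stood at 123 CPM and 1202 CPM. A cluster with little Ptprc, the gene of CD45, is called Ptprc-low. Most V segment UMIs lay in the mixed barcodes: 60.3% in Control and 50.2% in Sitagliptin, against 17.9% and 25.4% in the T cells themselves.

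A segment was called in a barcode when it had at least 1 UMI and more UMIs than any other segment of its chain. In T cells a Trav segment was called in 67 of 190 Control cells (35.3%, interval 28.5 to 42.5%) and 117 of 389 Sitagliptin cells (30.1%, 25.6 to 34.9%). A Trbv segment was called in 122 (64.2%, 57.0 to 71.0%) and 224 (57.6%, 52.5 to 62.5%). Both were called in 42 (22.1%) and 74 (19.0%). The ratios of Sitagliptin to Control were 0.853 (0.668 to 1.09) for Trav, 0.897 (0.783 to 1.03) for Trbv and 0.861 (0.615 to 1.20) for both, so each interval includes equal shares. The median depth of the T cells was 2932.5 and 3061 UMIs. When every cell was reduced at random to 2000 UMIs, which left no cell out, Trbv was called in 56.8% and 46.5%, with a ratio of 0.819 (0.695 to 0.964). The share with no UMI of either chain was 18.9% in Control and 29.6% in Sitagliptin (ratio 1.56, 1.12 to 2.17).

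These shares stood far above those of cells that should lack the segments. In monocytes and macrophages, at median depths of 5265 and 6440 UMIs, a Trav segment was called in 0.478% (Control) and 0.607% (Sitagliptin) of barcodes and a Trbv segment in 0.731% and 0.867%. In NK cells, which do not rearrange these loci, Trbv was called in 10 of 136 (7.35%) and 3 of 184 (1.63%). Of these NK calls 5 Control and 1 Sitagliptin calls lay in a cycling cluster that also carried Cd3e (101 CPM) and Trbc2 (317 CPM).

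The calls rest on few molecules. The called Trav segment had a median of 1 UMI in both libraries, and 68.7% (Control) and 67.5% (Sitagliptin) of these calls had just 1. The called Trbv segment had a median of 2 UMIs, with 31.1% and 36.2% of calls at 1. UMIs of at least 2 Trbv segments were found in 17.4% and 11.1% of the T cells. Counted by molecules, all Trav segments together stood at 183 CPM and 144 CPM (ratio 0.784, 0.627 to 0.984). All Trbv segments stood at 590 and 469 CPM (ratio 0.795, 0.703 to 0.900). UMIs of 1 cell are not independent, so the intervals of CPM ratios are too narrow. Cycling cells, in which Trbv was called most often, were 40 of the 190 Control and 52 of the 389 Sitagliptin cells. The part of this makeup in the ratios was not tested.

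**Figure D2:**
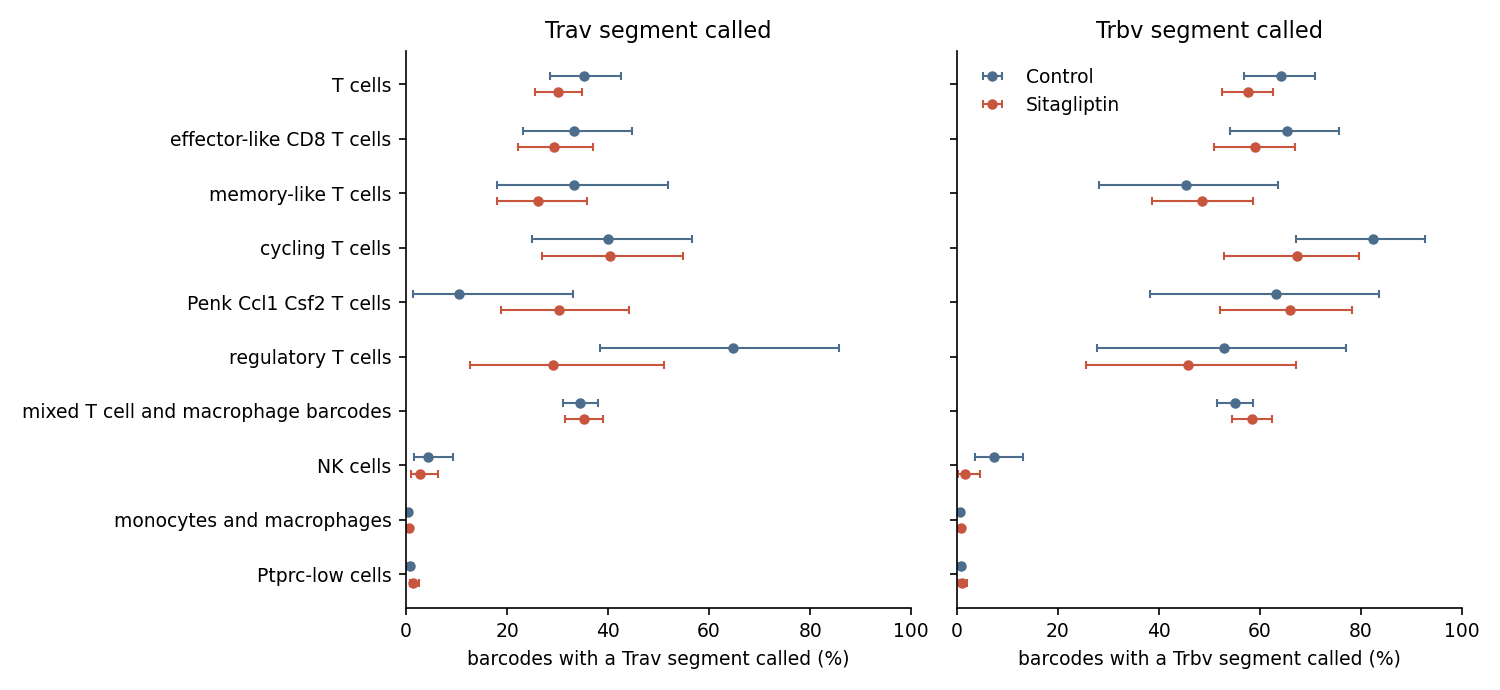
Percent of barcodes with a Trav (left) or Trbv (right) segment called, by class and library; points are shares and bars exact binomial 95% intervals. T cell subsets and mixed barcodes lie far to the right of monocytes, macrophages and Ptprc-low cells, and the intervals of the libraries overlap in the T cell subsets.

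Cycling T cells carried a Trbv call most often: 33 of 40 (82.5%) in Control and 35 of 52 (67.3%) in Sitagliptin, at median depths of 5066.5 and 5448 UMIs. Effector-like CD8 T cells had 53 of 81 (65.4%) and 91 of 154 (59.1%), at 2774 and 3075.5 UMIs. Memory-like T cells had 15 of 33 (45.5%) and 50 of 103 (48.5%), at 2416 and 2554 UMIs. Among these 3 subsets the order ran with depth, and the part of depth was not tested. Regulatory T cells, with 9 of 17 (52.9%) and 11 of 24 (45.8%), were as low as memory-like cells at a median of 4562 UMIs over both libraries. The cluster led by Penk, Ccl1 and Csf2 had 12 of 19 and 37 of 56, at a median of 2637 UMIs over both libraries. Its Sitagliptin share lay above that of effector-like cells. Memory-like cells also held UMIs of gamma chain V segments, in 0 of 33 Control cells (0 allows up to 9.09%) and 9 of 103 Sitagliptin cells (8.74%). Trav calls were at 33.3% and 29.2% in effector-like, 33.3% and 26.2% in memory-like and 40% and 40.4% in cycling T cells. In regulatory T cells Trav was called in 11 of 17 Control and 7 of 24 Sitagliptin cells (ratio 0.451, 0.220 to 0.922). The cluster led by Penk, Ccl1 and Csf2 went the other way, with 2 of 19 and 17 of 56 cells. Its ratio of 2.88 (0.733 to 11.3) has an interval that includes 1.

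Beta chain use in T cells was broad and similar in its leaders. Trbv12-2 was called in 15 of the 122 Control cells with a Trbv call (12.3%, 7.05 to 19.5%) and in 29 of the 224 Sitagliptin cells (12.9%, 8.84 to 18.1%). Trbv12-1 followed with 15 (12.3%) and 22 (9.82%), and Trbv13-1 with 13 (10.7%) and 23 (10.3%). Trbv19 had 12 and 16 cells, Trbv13-2 had 10 and 17, Trbv3 had 9 and 17, and Trbv31 had 6 and 11. For these 7 segments the ratios of shares lay between 0.726 and 1.05 and each interval included 1. The neighbours in this order are not separated, since their intervals overlap widely. By family, Trbv13 took 34 of 125 calls in Control (27.2%) and 46 of 224 in Sitagliptin (20.5%), and Trbv12 took 31 (24.8%) and 51 (22.8%).

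A few less common beta segments differed more. Trbv13-3 was called in 9 Control cells (7.38%) and 6 Sitagliptin cells (2.68%), a ratio of 0.363 (0.132 to 0.996). Of its calls 6 Control and 0 Sitagliptin ones were in cycling T cells. By molecules it went from 34 to 12 UMIs (48.7 and 8.02 CPM, ratio 0.165). Trbv29 was called in 2 (1.64%) and 14 cells (6.25%), a ratio of 3.81 (0.881 to 16.5), and Trbv16 in 5 (4.10%) and 19 (8.48%), a ratio of 2.07 (0.792 to 5.41). Trbv17 was called in 1 and 11 cells. Of the 163 segments 19 had at least 20 UMIs in T cells, and only these were compared by molecules: their median log2 ratio was -0.34, against -0.07 over all genes with that minimum. Of these, 2 of 19 stood at least 2-fold higher in Sitagliptin (Trbv17, with 1 and 42 UMIs, and Trbv29, with 9 and 46), where 2.3% of the 7860 genes with that minimum did. Of the same 19, 3 stood at least 2-fold lower (Trbv2, Trbv13-3 and Trbv14), against 2.23% of all genes. By share of all T cells, with or without a call, 2 of 19 segments called in at least 10 cells were 2-fold higher (Trbv17 and Trbv29). By the same share 3 were 2-fold lower (Trav8n-2, Trbv2 and Trbv13-3). Trbv16, at 2.07 among cells with a Trbv call, was not past 2-fold by this share. Calls are made for V segments only, so these counts stand without a share of all genes and are no result about the segments. Counted by T cells with a UMI, 4 of 22 segments found in at least 10 cells were 2-fold higher (Trbv16, Trbv17, Trbv29 and Trav5-4), against 4.38% of all genes, and 4 were 2-fold lower (Trbv2, Trbv13-3, Trav8n-2 and Trav16), against 3.15%. Trbv14 shows the difference between the countings: its 24 Control UMIs included 12 from 1 cell, and it was called in 6 and 7 cells.

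**Figure D3:**
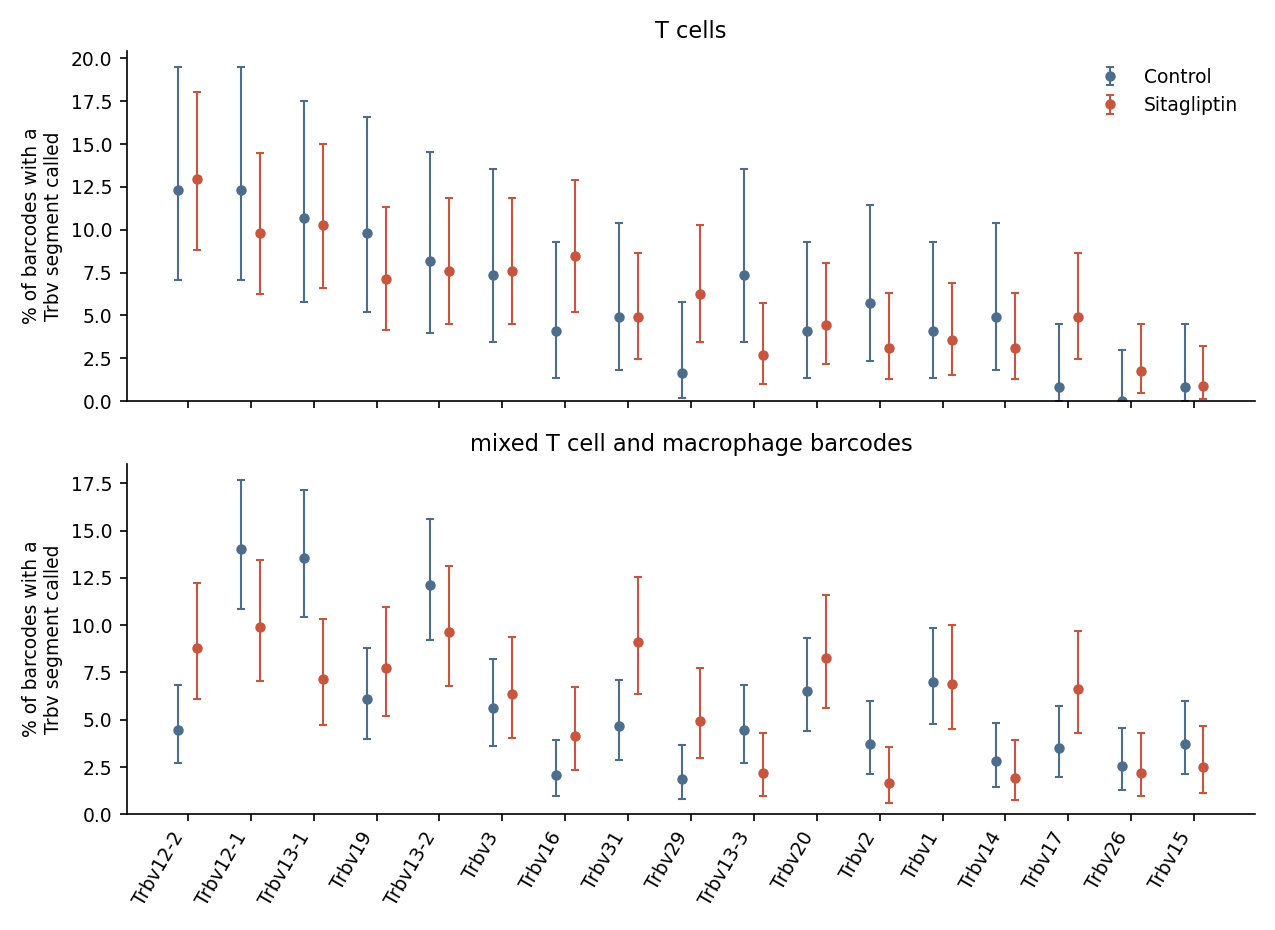
Percent of barcodes with a Trbv call that were called for each of the 17 most called Trbv segments, in T cells (top) and mixed barcodes (bottom); points are shares by library and bars exact binomial 95% intervals. Trbv29 lies higher in Sitagliptin and Trbv13-3 lower in both panels, while Trbv12-2 is level in T cells and higher in Sitagliptin in mixed barcodes.

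Alpha chain use was spread over more segments with fewer cells each. Trav16n was called in 5 of 67 Control cells (7.46%, 2.47 to 16.6%) and 13 of 117 Sitagliptin cells (11.1%, 6.05 to 18.3%). Trav16d-dv11 and Trav6-7-dv9 were each called in 4 and 6 cells, and Trav16 in 4 and 4. With its copies joined, the Trav16 family led in both libraries, with 14 of 68 (20.6%) and 23 of 117 (19.7%) calls. Trav8n-2 was the most called segment of the Control T cells, with 7 cells (10.4%, 4.30 to 20.3%), and had 3 in Sitagliptin (2.56%, 0.532 to 7.31%), a ratio of 0.245 (0.0656 to 0.918). Trav3-3 and Trav5-4 had 2 and 6 cells each, Trav13-4-dv7 had 3 and 4, and Trav13-1 had 3 and 3. Trav4-3 was called in 0 Control and 6 Sitagliptin cells (5.13%). With Control set to the floor of 3 cells the ratio was 1.15, which has no interval and is not a lower bound.

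Segments of invariant T cells were at or near 0. Trav11 and Trav11d, the segments of the invariant alpha chain of NKT cells, had 0 UMIs in all barcodes of both libraries. They are 99.7% identical to each other, and cells without these segments and reads not assigned to either copy cannot be told apart. Trav1, used by mucosal-associated invariant T cells, was called in 0 Control and 1 Sitagliptin T cell. The OT-I receptor, a much used transgenic receptor for an ovalbumin peptide, is built from segments of the Trav14 and Trbv12 families. Trav14 segments were called in 6 of 68 (8.82%) and 12 of 117 T cells (10.3%) with a Trav family call, a ratio of 1.16 (0.457 to 2.96). A Trav14 segment together with a Trbv12 segment was called in 1 of 42 and 3 of 74 T cells with both chains and in 5 of 166 and 7 of 153 mixed barcodes. These are shared families, and the antigen of these cells was not measured.

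**Figure D4:**
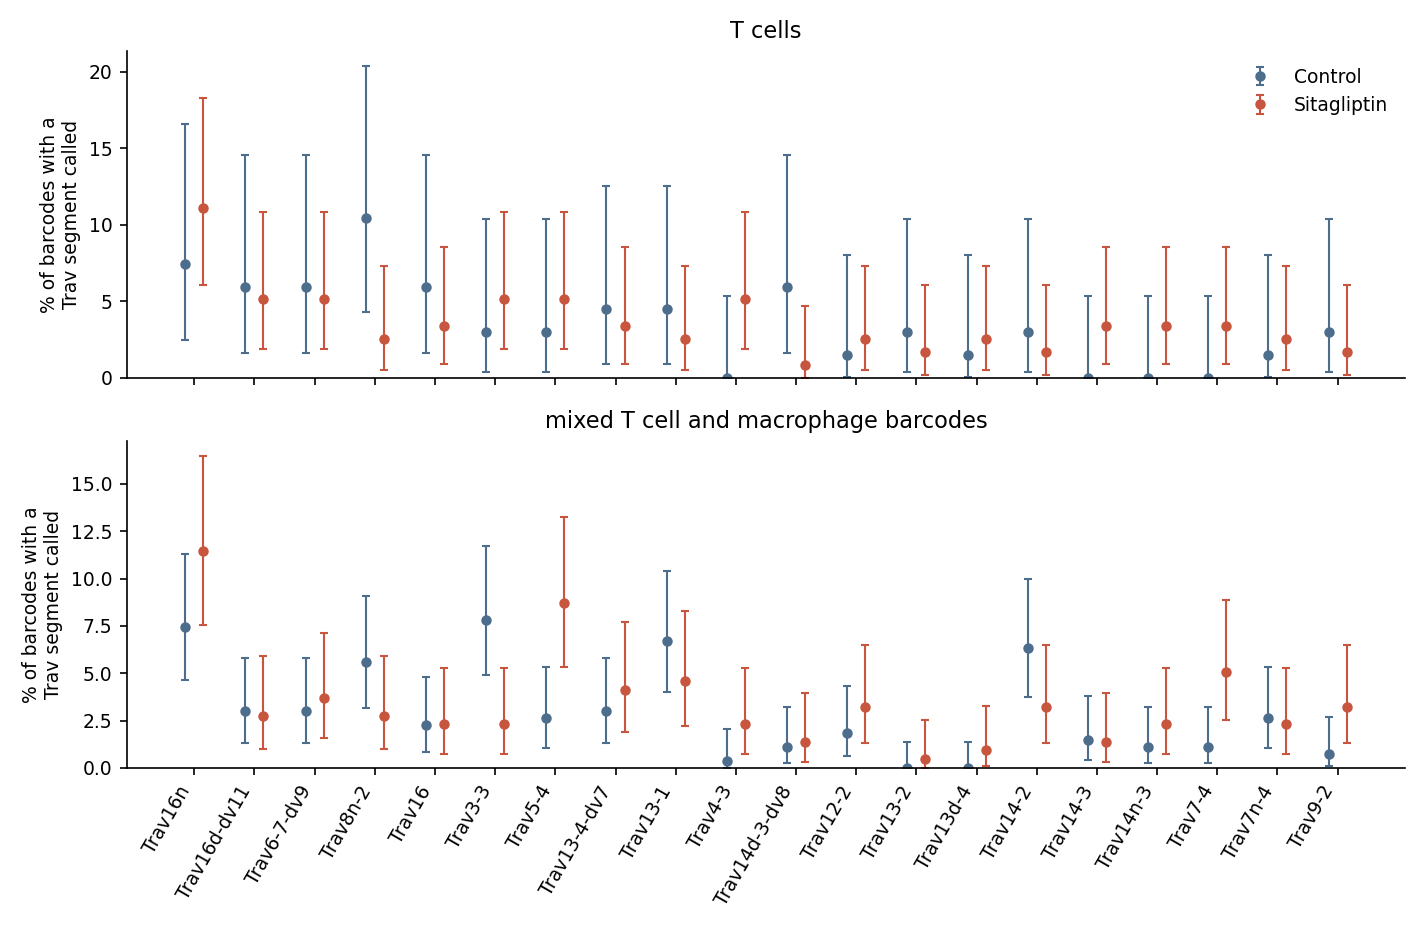
Percent of barcodes with a Trav call that were called for each of the 20 most called Trav segments, in T cells (top) and mixed barcodes (bottom); points are shares by library and bars exact binomial 95% intervals. Trav8n-2 lies lower and Trav16n and Trav5-4 higher in Sitagliptin in both panels, with wide intervals in T cells.

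Mixed barcodes carried V segments about as often as T cells, at a higher depth. Trav was called in 268 of 777 Control (34.5%) and 218 of 620 Sitagliptin barcodes (35.2%), and Trbv in 428 (55.1%) and 363 (58.5%). The median depths were 8441 and 10797 UMIs, and whether such a barcode held 1 cell or more was not tested. Both chains were called in 21.4% and 24.7% (ratio 1.16, 0.953 to 1.40). At 2000 UMIs a barcode, both were called in 3.09% of mixed barcodes and 14.7% of T cells in Control, and in 4.84% and 10.3% in Sitagliptin. UMIs of at least 2 Trbv segments occurred in 103 of 460 Control mixed barcodes with any Trbv UMI (22.4%) and in 95 of 383 of Sitagliptin (24.8%), where the T cells had 24.8% and 18.1%. All Trbv segments together stood at 191 and 180 CPM in mixed barcodes (ratio 0.941, 0.871 to 1.02).

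Mixed barcodes gave a second look at segment use in other droplets of the same libraries, which are not replicates. Trbv29 was again higher in Sitagliptin, with 8 of 428 (1.87%) and 18 of 363 calls (4.96%), a ratio of 2.65 (1.17 to 6.03). Trbv17 had 15 (3.50%) and 24 (6.61%), a ratio of 1.89 with an upper bound of 3.54. Trbv13-3 was lower, with 19 (4.44%) and 8 (2.20%), and its ratio of 0.496 (0.220 to 1.12) has an interval that includes 1. Trav8n-2 had 15 of 268 (5.60%) and 6 of 218 calls (2.75%, ratio 0.492, 0.194 to 1.25). For other segments the interval left out 1 here and included it in T cells, and whether the classes differ was not tested. Trbv12-2 went from 19 (4.44%) to 32 calls (8.82%, ratio 1.99, 1.15 to 3.44), where the T cells had 12.3% and 12.9%. Trbv13-1 went from 58 (13.6%) to 26 (7.16%, ratio 0.529, 0.340 to 0.821), where the T cells had 10.7% and 10.3%. Trbv31 went from 20 (4.67%) to 33 (9.09%, ratio 1.95, 1.14 to 3.33), where the T cells had 4.92% and 4.91%. Among Trav segments, Trav5-4 had 7 (2.61%) and 19 calls (8.72%, ratio 3.34, 1.43 to 7.79), where the T cells had 2.99% and 5.13%. Trav3-3 had 21 (7.84%) and 5 (2.29%, ratio 0.293, 0.112 to 0.764), while in T cells it went the other way, with 2 of 67 (2.99%) and 6 of 117 calls (5.13%). By molecules, 5 of 29 segments with at least 20 UMIs were at least 2-fold higher (Trbv12-2, Trbv29, Trav16n, Trav7-4 and Trav5-4) where 0.983% of all genes were. Trav7-4 had 3 and 17 UMIs, while Trav7d-4, 99.4% identical to it, had 10 and 0. On the lower side 4 were past 2-fold (Trbv2, Trbv13-1, Trav8n-2 and Trav3-3), against 1.04% of all genes. By barcodes with a UMI, 6 of 40 segments found in at least 10 barcodes were 2-fold higher, against 4.25% of all genes, and 1 (Trav13n-4) was 2-fold lower, against 0.684%.

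In each library 1 pair of V segments stood out among the T cells. Both chains were called in 42 Control T cells, which held 34 distinct pairs, and in 74 Sitagliptin T cells, which held 64. Trav8n-2 with Trbv19 was found in 5 Control and 1 Sitagliptin T cells, in 6 and 3 mixed barcodes and in 2 and 2 of the barcodes removed as doublets. All 5 Control T cells with Trav8n-2 and a called beta chain had Trbv19, which 8 of the 42 paired cells carried. The 5 cells were spread over subsets: 2 were effector-like, 2 cycling and 1 regulatory. Trav16n with Trbv31 was found in 0 Control and 4 Sitagliptin T cells and in 1 and 8 mixed barcodes. In Sitagliptin 10 paired T cells carried Trav16n and 7 carried Trbv31.

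Most repeated pairs were also called in mixed barcodes of their own library. Their overlap with mixed barcodes of the other library was not counted as a set, and some pairs occurred there too. In Control T cells 5 pairs were held by at least 2 cells, 13 of 42 cells in all (31.0%, 17.6 to 47.1%), and all 5 were also called in Control mixed barcodes. In Sitagliptin 8 pairs were repeated, with 18 of 74 cells (24.3%, 15.1 to 35.7%), and 7 of the 8 were also in Sitagliptin mixed barcodes. The exception was Trav5-1 with Trbv13-1, held by 2 Sitagliptin T cells and no mixed barcode. At an equal number of 42 cells, the expected share in repeated pairs was 31.0% in Control and 15.6% in Sitagliptin. Of the repeated pairs, 4 of 5 in Control and 6 of 8 in Sitagliptin were found in at least 2 subsets. Trav16n with Trbv2 had 2 Control and 0 Sitagliptin T cells and 6 and 0 mixed barcodes. Trav6-7-dv9 with Trbv13-2 and Trav16d-dv11 with Trbv14 each had 2 and 0 in both classes, and Trav13-1 with Trbv12-2 had 2 and 1 T cells and 2 and 4 mixed barcodes. Trav5-4 with Trbv12-2 and Trav9-2 with Trbv13-1 each had 1 Control and 2 Sitagliptin T cells, with 0 and 2 and 0 and 3 mixed barcodes. Trav8d-2 with Trbv1 and Trav16n with Trbv13-1 each had 1 T cell in both libraries. Between the libraries, 9 pairs were in the T cells of both, 26.5% of the Control and 14.1% of the Sitagliptin pairs. Within Control, 14 of the 34 T cell pairs (41.2%) were also among the 110 mixed pairs (12.7% of those). Within Sitagliptin, 34 of 64 (53.1%) were among the 98 mixed pairs (34.7%).

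**Figure D5:**
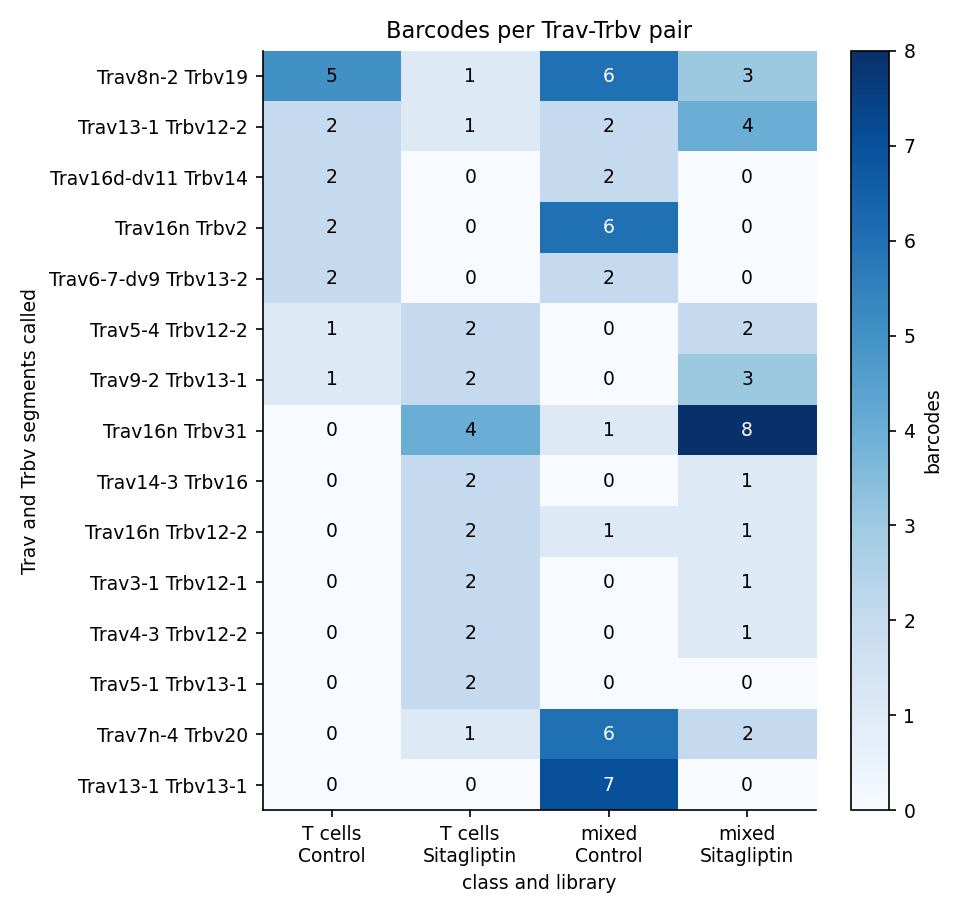
Barcodes that held each Trav-Trbv pair, by class (T cells, mixed) and library, for pairs in at least 2 T cells of a library or at least 6 mixed barcodes of a library; the number and the shade give the count. Trav8n-2 with Trbv19 leads the Control T cells with 5, and Trav16n with Trbv31 leads the Sitagliptin T cells with 4 and the mixed barcodes with 8.

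Over all T cells together, single segments were about as evenly used in the libraries. The Simpson index, the chance that 2 cells drawn without replacement share a call, was 3.12% and 3.11% for Trav and 7.49% and 7.17% for Trbv. For pairs it was 1.63% in Control and 0.481% in Sitagliptin. Without Trav8n-2 with Trbv19, the leading Control pair, it was 0.601% and 0.495%. Without Trav16n with Trbv31, the leading Sitagliptin pair, it was 1.63% and 0.290%. With its own leading pair left out, each library thus stood at 0.601% (Control) and 0.290% (Sitagliptin). The index of pairs depended on 1 pair in each library. In mixed barcodes the index of pairs was 0.811% and 0.826%, and 51.8% and 57.5% of the 166 and 153 paired barcodes were in repeated pairs. A call that rests on 1 UMI counts here like any other.

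Genes of the receptor other than its V segments were read in the same T cells. Of 20 genes of the receptor complex, its signalling and its rearrangement, 14 had at least 20 UMIs in T cells and 0 were past 2-fold in either direction, where 2.3% of all genes were that much higher and 2.23% lower. Trac, the alpha constant segment, stood at 206 and 182 CPM (Control, then Sitagliptin; ratio 0.885, 0.720 to 1.09). Trbc2, a beta constant segment, stood at 514 and 527 CPM (ratio 1.03, 0.904 to 1.17), and Trbc1, its near-identical copy, at 136 and 192 CPM (ratio 1.41, 1.12 to 1.80). Reads of these copies may be split between them, so the difference between them is uncertain. Cd3e, a signalling chain of the complex, stood at 326 and 498 CPM (ratio 1.53, 1.31 to 1.78), while Cd3d and Cd3g had ratios of 0.891 and 0.889. Of the signalling genes, the adaptor Lat had a ratio of 0.706 (0.578 to 0.863), and the kinases Zap70 and Lck had ratios of 0.741 (0.516 to 1.07) and 0.818 (0.656 to 1.02). The ratio of 0.795 of all Trbv segments lies within the intervals of Trac, Lat, Zap70 and Lck and of Cd3g (0.785 to 1.01), and no difference from it was tested. Ptcra, Rag1, Rag2 and Dntt, genes of receptor rearrangement in the thymus, had 0 UMIs in T cells.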

How the data were processed

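Counts: the authors deposited raw UMI counts per gene and barcode for each library (SeekOne DD Single Cell 5′ kit, per the labels' protocols). The aligner, genome build, annotation and cell filter were not given in the sources used here. Scrublet's automatic threshold marked 0 barcodes, and 522 and 586 barcodes, the top 6% of each library by score, were left out instead. Counts were scaled to 10000 per barcode and log-transformed, and 2000 variable genes without V, D or J segments gave 30 principal components and Leiden clusters (scanpy 1.11.5, leidenalg 0.10.2). T and NK clusters were clustered again, and a small subcluster with C1qa was left out. Clusters were named by fixed levels of markers, for the T and NK subclusters Ncr1, Foxp3, Mki67, S1pr1 and Gzmb in this order. Segments tied for most UMIs were not called. Intervals were exact binomial for shares, log-normal for ratios of shares, and exact Poisson or conditional binomial for CPM and its ratios (scipy 1.17.1). A share of 0 was set to a floor of 3 counts per library in ratios. Functions were tested on simulated data. Named were the 10 Trav and 10 Trbv segments called in most T cells, Trav1, Trav11, Trav11d, the Trav14 and Trbv12 families, the 10 pairs in most T cells and those in at least 3 T cells of a library; other names were chosen after their values were seen. The members and lists were chosen with earlier results of these data known. Alternatives are given in the closing section.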

Additional observations from a re-analysis of the deposited data

Results flagged for a closer look

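V segments of the delta chain, which no comparison above uses, were found in NK cells. A Trdv UMI was present in 35 of 136 Control NK cells (25.7%) and 60 of 184 Sitagliptin NK cells (32.6%), against 0.0843% and 0.0867% of monocytes and macrophages. Trdv4 gave 33 and 63 of these UMIs and Trdv2-2 17 and 19. The T cells had a Trdv UMI in 1.05% and 2.06%.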

How the results depend on the processing

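Of the values for whole chains and pairs, 70 recomputed under an alternative stayed within their spread or within 1.5 times, 19 moved further and 1 reversed. The alternatives that take T cells and mixed barcodes together, leave out cells with a gamma or delta V UMI, or leave out Trav8n-2 with Trbv19 were added after seeing the data. With T cells and mixed barcodes together the ratio of all Trbv reversed to 1.01, that of all Trav was 0.987, the pair index ratio was 0.903, and 13 segments were past 2-fold by UMIs and 14 by cells, against 5 and 5. With T cells defined by their T cell UMIs alone (392 and 585 cells), the Trbv ratio was 0.960, the pair index ratio 0.602, and 8 segments were past 2-fold by UMIs. The pair index ratio of 0.296 became 0 with at least 2 UMIs a call, 0.519 with a called segment at 3 times the next, 0.482 with families joined, 0.490 with near copies joined and 0.824 without Trav8n-2 with Trbv19. By UMIs 1 segment was past 2-fold with a minimum of 50 UMIs, and 23 with no minimum but 1 UMI in each library. By cells 2 were past it with at least 2 UMIs a call, 3 with 3 times the next and 8 with a minimum of 5 cells. All these counts of segments under alternatives stand without the number compared and the share of all genes past 2-fold. They show how the count depends on the processing and are no result about the segments. The mixed barcodes' ratio for both chains was 1.72 with at least 2 UMIs a call and 1.57 at 2000 UMIs. With at least 2 UMIs a call the share of T cells in repeated pairs gave no ratio. The cause of these shifts was not tested. No paired analysis was possible because each diet had 1 library and the labels give no replicate numbers. Few UMIs per call limit every pair and every Trav value.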

Other observations

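The d copies of the Trav locus, a grouping chosen after its values were seen, took a smaller share of the Trav calls of mixed barcodes in Sitagliptin. In mixed barcodes the 39 segments with d in their names took 45 of 268 Control (16.8%) and 17 of 218 Sitagliptin Trav calls (7.80%), a ratio of 0.464 (0.274 to 0.788). In T cells they took 12 of 67 (17.9%) and 12 of 117 (10.3%), a ratio of 0.573 (0.273 to 1.20) whose interval includes 1. The 34 segments with n took 22.0% and 20.6% of the mixed calls. Trav6d-5 was called in 7 Control and 0 Sitagliptin mixed barcodes, and Trav7d-4 and Trav8d-1 in 6 and 0 each, while Trav8d-2 was called in 1 and 3 and Trav13d-4 in 0 and 2. Close partners of these d copies did not all move with them. Trav7-4, 99.4% identical to Trav7d-4, went the other way, with 3 and 11 mixed calls. Trav6-5, 95.9% identical to Trav6d-5, had 0 and 1, and Trav8-1, 96.1% identical to Trav8d-1, had 3 and 0. How reads were assigned among near copies is not known, so use of d copies cannot be read apart from that of their partners. The difference was not tested.

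A few pairs recurred in mixed barcodes, of which 166 Control and 153 Sitagliptin ones had both chains called, against 42 and 74 T cells. Trav13-1 with Trbv13-1 was called in 7 Control and 0 Sitagliptin mixed barcodes and in no T cell. Trav7n-4 with Trbv20 was called in 6 and 2 mixed barcodes and in 0 and 1 T cells, and Trav7-4 with Trbv20 in 0 and 5 mixed barcodes and 0 and 1 T cells. Trav7n-4 and Trav7-4 bear the names of copies of each other, and how reads were assigned among such copies is not known.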
